A study of Mus musculus with 48 samples.

Results

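This account covers 43 genes of Wnt signalling, which are the ligands, Frizzled receptors, co-receptors, secreted antagonists and transcriptional readouts, out of 55450 genes in the tables. They comprise every gene of both tables whose symbol is Wnt, Fzd, Sfrp or Dkk followed by digits and an optional letter, plus 6 genes listed by name, Wif1, Axin2, Lef1, Tcf7, Lrp5 and Lrp6. By role they are 19 Wnt ligands, 10 Frizzled receptors, 2 co-receptors, 4 Sfrp and 4 Dkk antagonists, Wif1, and 3 targets and factors. Wnt proteins are secreted lipid-modified ligands that bind Frizzled receptors on the cell surface. With the co-receptors Lrp5 and Lrp6 they stabilize β-catenin, which acts with Tcf and Lef factors on target genes such as Axin2, whereas ligands such as Wnt5a and Wnt11 are best known for signalling that does not need β-catenin. Sfrp proteins and Wif1 bind the ligands, and Dkk proteins such as Dkk1 and Dkk2 bind the co-receptors. The β-catenin branch is known to restrain the conversion of preadipocytes into fat cells.

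The cells came from C57BL/6 mice, either wild type (WT) or lacking both Hmgn1 and Hmgn2 (DKO), which encode nucleosome-binding proteins. Cultured preadipocytes from the inguinal white fat of young adult mice were sampled at days 0, 3, 6 and 9 of differentiation, and mouse embryonic fibroblasts (MEFs) at days 0, 4, 8 and 12. All cultures received the same mixture of insulin, dexamethasone, IBMX, T3 and rosiglitazone, a mixture used to obtain brown-like adipocytes, and then insulin with T3. The methods give 4 days of the mixture for preadipocytes and 8 days for MEFs, each followed by 4 days of insulin with T3. Time courses of the cell types thus differ also in the time spent in the mixture. Every sample after day 0 is a treated culture, and no untreated culture of the same day enters. Each of the 16 groups had 3 libraries, described in the methods as biological replicates, whose summed counts ran from 19809397 to 36006696 in preadipocytes and from 18962483 to 33083213 in MEFs. DKO is a deletion in the whole animal, so it was present in all cell types of these cultures before and during differentiation.

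Levels are given in CPM, counts scaled to a common library size by the trimmed mean of M values over all 48 libraries, for replicates 1, 2 and 3 in that order. A gene was called when its Benjamini-Hochberg adjusted p-value over all tested genes was under 0.05 in edgeR's quasi-likelihood test and its fold change was at least 1.5, and log2 fold changes carry their standard error (SE). Hmgn2 had 744 to 4094 counts in WT and 0 to 10 in DKO preadipocytes, and 1046 to 6069 in WT and 0 to 3 in DKO MEFs. Hmgn1 had 1542 to 5184 counts in WT and 1571 to 3160 in DKO preadipocytes, and 2457 to 6120 in WT and 1748 to 3493 in DKO MEFs. It was called lower in DKO at day 3 in preadipocytes (−0.77 ± 0.09, adjusted p = 0.0384) and at day 4 in MEFs (−1.14 ± 0.13, adjusted p = 0.0390). Many Hmgn1 counts stayed in all DKO libraries. The authors report that DKO cells lacked transcripts of the deleted exons and made no HMGN1 protein, and gene-level counts do not separate exons. The summed level of 10 adipocyte markers, among them Adipoq and Fabp4, went in preadipocytes from between 166 and 453 CPM at day 0 to between 23916 and 28101 CPM at day 6 in WT, although Lep was at or under 3 counts there. Macrophage markers were present in both cell types. In preadipocyte cultures their sum rose from 129 to 467 CPM at day 0 to 5118 to 8669 CPM at day 6 in WT. In DKO it rose from 38 to 331 CPM to 1884 to 3910 CPM. The part of this rise in the changes over time was not tested. In bulk samples of this kind, fewer cells of a type and less RNA per cell cannot be told apart.

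Several MEF libraries stood apart from others of their own group. At day 8, WT replicate 2 and DKO replicate 3 correlated with each other (r = 0.707, over genes, after removing the day's mean) and negatively with both other libraries of their own group (−0.615 to −0.419). At day 4, WT replicate 1 and DKO replicate 3 correlated with each other (0.549), and WT replicate 1 correlated negatively with both other WT libraries (−0.554 and −0.511). DKO replicate 3 of that day was less clearly apart, at 0.24 with replicate 1 and −0.33 with replicate 2 of its group. Tests for those days are given with and without these 4 libraries. At day 0, DKO replicate 1 correlated negatively with both other DKO libraries (−0.453 and −0.433) and at 0.437 with WT replicate 2, and its summed level of 10 preadipocyte and fibroblast markers was 12852 CPM against 5375 and 7264 CPM in the others. This library enters all DKO MEF comparisons with day 0, and the values without it stand beside those it changed.

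Not every member was expressed in these cells. A group mean of at least 1 CPM was reached in at least 1 group by 25 of the 43 genes in preadipocytes and by 30 in MEFs. Dkk4 had no count in any of the 48 libraries, and Wnt1, Wnt3a, Wnt8a, Wnt8b and Wnt9b never exceeded 3 counts. Dkk1, the best-known Lrp5/6 blocker, and Sfrp5 reached at most 7 counts, and Wnt3, Wnt7a, Wnt7b and Wnt10a at most 5, 6, 11 and 10 counts. Wif1, which binds Wnt ligands outside the cell, stayed under 1 CPM in all libraries. At this depth the 6 genes at or under 3 counts were not detectable, which is no proof of absence. The heatmap of group means shows the split between these silent members and those that were expressed.

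A set of 7 genes was called between DKO and WT on at least 1 day, namely Wnt5a, Wnt11 and Fzd1 in preadipocytes and Wnt2, Wnt10b, Dkk2 and Fzd3 in MEFs. The 250 bases before the start of 4 of them are shown from RefSeq (GRCm38.p6), so that the promoters of a ligand and a receptor called in preadipocytes and of a ligand and an antagonist called in MEFs can be compared. Capitals mark a match to any of the letters CTTTG followed by AA, AT, TA or TT, a form read by Tcf and Lef factors, searched on both strands.
Wnt11, chr7:98834862-98835111, plus strand: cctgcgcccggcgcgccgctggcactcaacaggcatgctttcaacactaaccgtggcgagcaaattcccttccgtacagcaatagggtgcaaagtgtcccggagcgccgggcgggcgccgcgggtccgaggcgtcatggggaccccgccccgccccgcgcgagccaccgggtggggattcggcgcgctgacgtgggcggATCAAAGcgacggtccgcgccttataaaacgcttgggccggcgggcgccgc
Fzd1, chr5:4758217-4758466, minus strand: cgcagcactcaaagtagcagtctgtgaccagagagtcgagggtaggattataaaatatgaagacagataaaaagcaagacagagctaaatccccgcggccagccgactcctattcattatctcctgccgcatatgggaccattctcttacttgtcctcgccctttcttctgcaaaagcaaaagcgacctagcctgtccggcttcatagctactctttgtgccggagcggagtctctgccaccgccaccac
Wnt10b, chr15:98778151-98778400, minus strand: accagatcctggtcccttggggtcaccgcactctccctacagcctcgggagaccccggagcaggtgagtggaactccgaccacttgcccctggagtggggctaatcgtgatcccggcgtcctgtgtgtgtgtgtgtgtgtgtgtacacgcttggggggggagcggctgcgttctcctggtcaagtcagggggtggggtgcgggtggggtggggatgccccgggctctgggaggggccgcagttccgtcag
Dkk2, chr3:132085042-132085291, plus strand: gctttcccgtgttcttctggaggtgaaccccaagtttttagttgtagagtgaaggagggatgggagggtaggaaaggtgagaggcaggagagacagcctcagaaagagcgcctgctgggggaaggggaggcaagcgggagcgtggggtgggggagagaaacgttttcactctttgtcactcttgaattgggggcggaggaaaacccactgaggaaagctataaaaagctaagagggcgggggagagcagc

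Among these windows the Wnt11 window holds 1 match, ATCAAAG, 51 bases before the start, and the other 3 windows hold none. A second Wnt11 start has a window without a match. Of the 43 genes, 29 had an entry and 5 of their 36 windows (13.9%) held a match, in Dkk1, Fzd7, Lef1, Wnt11 and Wnt5b. Over all genes 4874 of 32851 windows (14.8%) held one, so the members' share was near the background. Wnt5a and Fzd3 had no entry. The gene bodies lie elsewhere on mm10 (GENCODE M21), with Wnt5a at chr14:28504750-28527448 on the plus strand, Wnt2 at chr6:17988940-18030585 on the minus strand and Fzd3 at chr14:65192449-65262463 on the minus strand.

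Wnt ligands fell in the preadipocyte cultures over the days of differentiation. At day 9 against day 0 in WT cells, 6 of 8 tested ligands fell and none rose, and in DKO cells 4 fell and Wnt11 alone rose. Over all members, 18 of 25 were called in WT (72%, against 52.7% of all genes tested) with 16 lower and 2 higher (27% of all genes were called lower), and their median log2 fold change was −1.32 against −0.014 for all genes. In DKO cells 16 of 26 were called (61.5%, against 55.6%), 14 of them lower (29% of all genes), with a median of −1.67 against −0.018.

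In preadipocytes fewer members were called at day 3 than at day 6, against day 0. Called members numbered 13 of 25 at day 3 (52%, against 24.7% of all genes) and 19 of 25 at day 6 (76%, against 53.1%) in WT preadipocytes, and 14 of 26 (53.8%, against 27%) and 20 of 26 (76.9%, against 57.4%) in DKO preadipocytes. In MEFs they were 14 of 30 at day 4 (46.7%, against 33.2%) and 12 of 30 at day 8 (40%, against 29.6%) for WT, and 10 of 30 on both days (33.3%) for DKO, against 26.1% and 27.1% of all genes. The share of members called was above that of all genes in all 12 comparisons with day 0, and no test of that excess was made.

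Wnt5a was the most abundant ligand in WT preadipocytes at day 0, with 61.5, 69.7 and 65.4 CPM. At day 6 it stood at 8.2, 10.3 and 10.6 CPM and at day 9 at 13.1, 12.5 and 12.7 CPM. All 3 late libraries were below all 3 early ones on both days, and the fall at day 9 was −2.36 ± 0.24, adjusted p = 5.62e-06. DKO preadipocytes went from 76.1, 52.1 and 51.6 CPM to 16.5, 14.6 and 21.2 CPM, again with no overlap (−1.78 ± 0.32, adjusted p = 0.000485). Per kilobase of exon the 19 ligands together summed to a mean of 17.8 CPM per kb at day 0 in WT preadipocytes (14.4 to 22.6) and 3.53 at day 6 (3.20 to 4.12), and Wnt5a made up 48.2% and 36.1% of these sums.

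Wnt4, a ligand with roles in kidney and reproductive tract development, rose and then fell to a trace. Its level was 2.38, 10.8 and 4.16 CPM at day 0, 70.3, 18.2 and 15.9 CPM at day 3 and 0.41, 0.579 and 0.351 CPM at day 6 in WT preadipocytes. The day 3 rise was 2.53 ± 0.65, adjusted p = 0.0111 and the later fall −3.67 ± 0.87, adjusted p = 0.00335, both against day 0. In DKO preadipocytes the same 3 days gave 12.1, 4.17 and 4.33, then 47.8, 17 and 17.7, then 0.343, 0.763 and 0.142 CPM, with calls in the same directions. WT replicate 1 and DKO replicate 1 were the high libraries of day 3, well above the others of their groups.

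Wnt2b, a ligand close in sequence to Wnt2, had the largest fall of any ligand in WT preadipocytes at day 9, from 4.75, 18.6 and 5.6 to 0.503, 0.185 and 0.459 CPM (−4.67 ± 1.09, adjusted p = 0.00318). Wnt9a went from 6.07, 7.49 and 5.75 to 2.96, 2.13 and 2.65 CPM (−1.32 ± 0.29, adjusted p = 0.00138). Wnt16 fell less, from 5.98, 8.19 and 11.1 to 5.82, 5.6 and 4.28 CPM (−0.68 ± 0.26, adjusted p = 0.0362), and its libraries did not overlap. In DKO preadipocytes Wnt16 was uneven, since replicate 2 held 37.5 CPM at day 0 and 36.4 CPM at day 3 while the other libraries of those groups held at most 15.6 CPM.

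In MEFs the summed ligand level also declined. It was 21.03 CPM per kb at day 0 and 12.7 at day 12 in WT MEFs (20.2 to 22.2 and 11.7 to 13.6), and 20.04 and 10.2 in DKO MEFs (15.2 to 27.5 and 9.97 to 10.7). Without DKO replicate 1 the DKO mean at day 0 was 16.3. In preadipocytes the means at day 9 were 5.09 in WT and 5.98 in DKO, and no test of the difference between cell types was made. Wnt5a fell in WT MEFs from 62.6, 83.5 and 58.8 to 21.8, 23.1 and 21.3 CPM (−1.71 ± 0.26, adjusted p = 0.000396), and Wnt9a then held the same share of the ligand sum (22.4%) as Wnt5a (22.2%). Wnt6 rose at day 12 in WT MEFs from a low level, 0.31, 0.405 and 0.659 to 1.46, 1.1 and 1.183 CPM (1.36 ± 0.48, adjusted p = 0.0372). No preadipocyte library exceeded 0.235 CPM of Wnt6.

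Wnt10b, a ligand known to block adipogenesis through β-catenin, was found almost only in MEFs. WT MEFs held 3.23, 3.68 and 3.11 CPM at day 0, 1.83, 0.674 and 0.316 CPM at day 4 and 6.18, 6.72 and 4.61 CPM at day 12. The day 4 fall was called in WT (−1.89 ± 0.50, adjusted p = 0.00829) and in DKO (−1.75 ± 0.48, adjusted p = 0.0153), and day 12 was not called against day 0 in either genotype. Without day 0 DKO replicate 1 the DKO fall was −1.45 (adjusted p = 0.0510) and not called. No preadipocyte library exceeded 0.616 CPM. Over all members, 12 of 30 were called at day 12 in WT MEFs (40%, against 26.3% of all genes), with 5 higher and 7 lower (13.8% of all genes called lower), and 10 of 30 in DKO MEFs (33.3%, against 25.6%), with 2 higher and 8 lower (9.97%). Without day 0 DKO replicate 1, 6 members were called at day 12 in DKO MEFs, and Wnt5a (−1.30, adjusted p = 0.0501), Wnt9a, Fzd2 and Lef1 were lost.

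Frizzled receptors changed in which receptor was most abundant. In WT preadipocytes Fzd7 (30.9%), Fzd2 (25.8%) and Fzd1 (21.6%) made up most of the receptor sum per kilobase at day 0, Fzd1 made up 51.6% at day 3, and Fzd4 made up 53.2% at day 6 and 48.4% at day 9. In WT MEFs Fzd2 led at day 0 (29.9%), Fzd1 led at day 4 (48.6%) and Fzd1 (31.4%) and Fzd4 (27.9%) led at day 12. Without the libraries that stood apart, Fzd1 still led at day 4 (53% in WT and 47.9% in DKO). At day 8 in WT MEFs Fzd1 (34.5%) was ahead of Fzd4 (33.1%) with all libraries, and Fzd4 (39.8%) was ahead of Fzd1 (31.1%) without the one that stood apart. The shares of each ligand and receptor in their class are drawn in the plot of class shares.

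**Figure D1:**
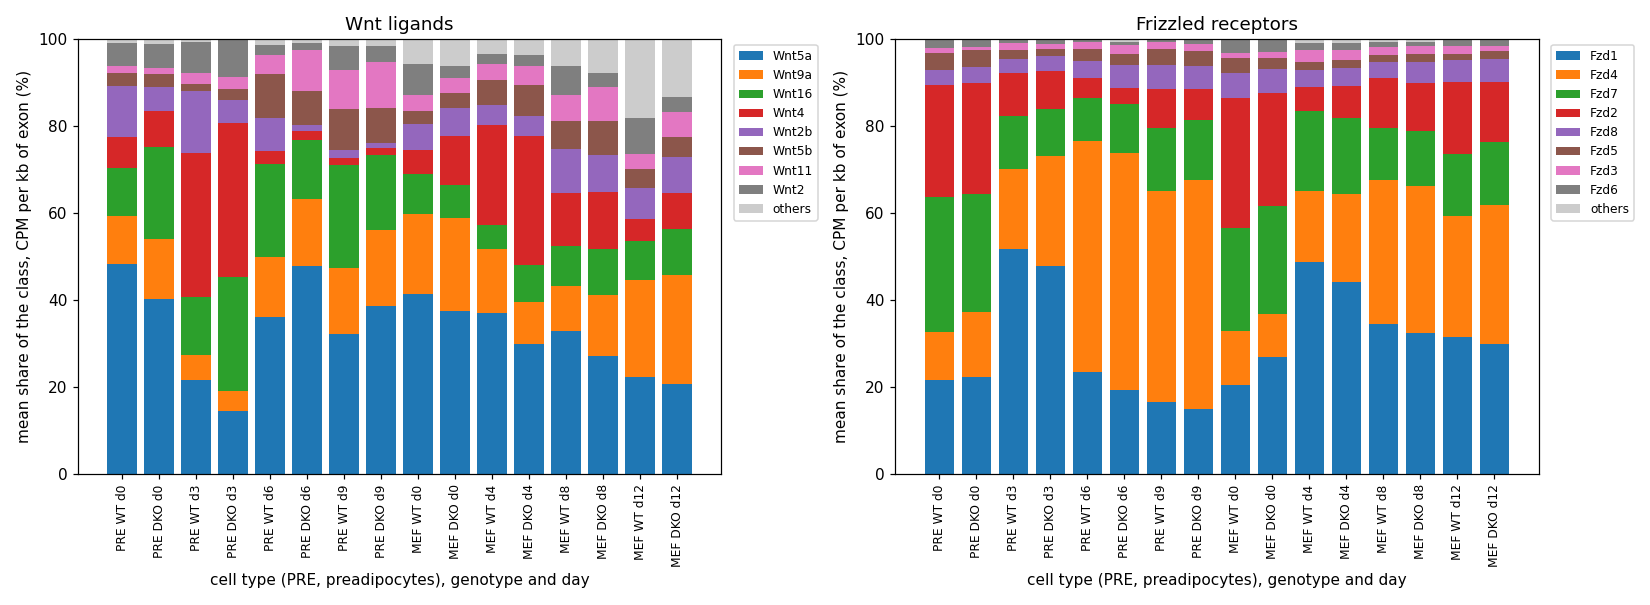
Mean share of each gene in the summed CPM per kb of exon of the Wnt ligands and of the Frizzled receptors, in percent, for the 16 groups of 3 libraries. In preadipocytes the receptor bar passes from Fzd7 and Fzd2 at day 0 to Fzd1 at day 3 and Fzd4 from day 6, in both genotypes.

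Fzd4, a receptor for Norrin and Wnt ligands, rose in both cell types. WT preadipocytes held 39.3, 75.6 and 60.3 CPM at day 0, 300.0, 221 and 260.4 CPM at day 6 and 147, 138 and 139.9 CPM at day 9. No library of day 6 or day 9 overlapped day 0, and the log2 fold change was 2.16 ± 0.20, adjusted p = 2.90e-06 at day 6 and 1.28 ± 0.20, adjusted p = 0.000151 at day 9. WT MEFs rose from 65.1, 57.3 and 59.5 to 163, 163 and 168 CPM by day 12 (1.36 ± 0.39, adjusted p = 0.0176). It was the only member called higher at the last day in both cell types and both genotypes.

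Fzd1, a receptor that can act through β-catenin, was highest at the first sampled day after induction. WT preadipocytes went from 54.3, 85.8 and 73.5 CPM at day 0 to 293, 229 and 239.6 CPM at day 3 and 30.6, 29.9 and 29.8 CPM at day 9 (1.78 ± 0.16, adjusted p = 1.44e-05 and −1.24 ± 0.16, adjusted p = 3.58e-05). WT MEFs went from 67.1, 52.5 and 70.3 to 195, 268 and 269 CPM at day 4 and were still higher at day 12, at 116, 115 and 118 CPM (0.79 ± 0.13, adjusted p = 0.000614). DKO MEFs went from 77, 79.1 and 109 to 97.6, 97.6 and 105 CPM at day 12, with overlap and no call (0.21 ± 0.17, adjusted p = 0.363), and DKO preadipocytes fell by day 9 (−1.55 ± 0.17, adjusted p = 1.43e-05). In WT the late direction was thus lower in preadipocytes and higher in MEFs, and that difference between cell types was not tested.

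Fzd2 and Fzd7, which are close paralogs, fell in preadipocytes. Fzd2 went from 74.2, 74.2 and 70.2 to 15.9, 13.1 and 14 CPM (−2.34 ± 0.14, adjusted p = 4.31e-08) in WT, and Fzd7 from 94.3, 117 and 115 to 28.6, 27.9 and 30.5 CPM (−1.91 ± 0.13, adjusted p = 9.26e-08). In WT MEFs Fzd2 was called lower at day 4 (−1.80 ± 0.26, adjusted p = 0.000232) and day 8 but not at day 12, where it held 55.3, 51.9 and 53 CPM. Fzd3, known from axon guidance and planar polarity, rose in WT MEFs at day 4 from 10.5, 11.8 and 10.5 to 38.3, 48.6 and 39.1 CPM (1.84 ± 0.15, adjusted p = 2.03e-06) and stood at 22.2, 19.5 and 18.8 CPM at day 12 (0.80 ± 0.15, adjusted p = 0.00102). Fzd9 rose from 0.248, 0.0675 and 0.11 to 1.42, 1.92 and 2.63 CPM at day 4 in WT MEFs and held 0.353, 0.779 and 0.394 CPM at day 12 (1.73 ± 0.58, adjusted p = 0.0281), where its libraries lay above those of day 0.

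The co-receptors were called higher in preadipocytes at days 3 and 6 but not at day 9. Per kilobase of exon the mean of Lrp6 was above that of Lrp5 in all 16 groups. Lrp6 held 163, 212 and 246 CPM in WT preadipocytes at day 0 and 337, 354 and 443 CPM at day 3 (0.81 ± 0.15, adjusted p = 0.00145), and it was back at 201, 207 and 211 CPM at day 9. Lrp5 was called higher at day 6 in WT preadipocytes (55.8, 65.5 and 80.9 to 107, 109.9 and 105 CPM, 0.68 ± 0.14, adjusted p = 0.00123). Lrp6 was also called higher on that day in WT preadipocytes. In DKO preadipocytes Lrp6 was called higher at day 3 and Lrp5 at day 6. Neither co-receptor was called on any day in MEFs, where Lrp5 ran from 114 to 201 CPM over the 24 libraries and Lrp6 from 268 to 461 CPM.

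Among the secreted antagonists Sfrp1 stood highest, and per kilobase of exon its mean was above that of each other member in all 16 groups. This Wnt-binding protein held 1467, 2538 and 3060.1 CPM in WT preadipocytes at day 0 and 844, 686 and 738 CPM at day 9, without overlap (−1.64 ± 0.36, adjusted p = 0.00207), and the DKO fall was −2.24 ± 0.31, adjusted p = 7.10e-05. In WT MEFs its day 0 level was 657, 619 and 653 CPM and its day 12 level 578, 554 and 549 CPM, a change that was not called (−0.28 ± 0.39, adjusted p = 0.596). No test of the difference between cell types was made.

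Sfrp2 moved in opposite directions in WT preadipocytes and WT MEFs. WT preadipocytes held 12.5, 9.02 and 25.2 CPM at day 0 and 65.3, 97.7 and 80.1 CPM at day 9 (2.39 ± 0.32, adjusted p = 6.69e-05), and WT MEFs held 208, 199 and 208 CPM at day 0 and 99.4, 92.7 and 99.1 CPM at day 12 (−1.16 ± 0.39, adjusted p = 0.0350). In DKO preadipocytes day 9 held 34.5, 128 and 31.4 CPM against 15.2, 63.7 and 41 CPM at day 0, with overlap and no call (0.72 ± 0.65, adjusted p = 0.343). The difference between cell types was not tested. Sfrp4, another ligand-binding antagonist, fell in WT cells of both types. It went from 22, 29.9 and 25.6 to 1.23, 1.2 and 0.764 CPM in WT preadipocytes (−4.59 ± 0.36, adjusted p = 6.23e-07). In WT MEFs it went from 20.4, 13.2 and 22.2 to 3.66, 2.34 and 2.56 CPM (−2.79 ± 0.37, adjusted p = 0.000147). Sfrp4 was also called lower in DKO preadipocytes at day 9. In DKO MEFs, with all libraries, none of the 3 tested Sfrp genes was called against day 0 on any day.

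Dkk3, a divergent Dkk protein, and Dkk2, a co-receptor ligand, fell steeply. Dkk3 went from 215, 246 and 275 to 15.4, 15 and 15.4 CPM in WT preadipocytes (−4.00 ± 0.36, adjusted p = 4.11e-06). Dkk2 in WT MEFs went from 173, 167 and 164 to 18.4, 8.94 and 9.15 CPM by day 4 and 27.4, 25.1 and 24.4 CPM at day 12 (−2.80 ± 0.26, adjusted p = 1.51e-05). In preadipocytes Dkk2 was uneven within groups. WT held 84.7, 76.4 and 318 CPM at day 0 and 41.5, 4.21 and 5.3 CPM at day 9 (−3.24 ± 1.32, adjusted p = 0.0493), so replicate 3 was high early and replicate 1 high late. The plot of 8 genes over the days shows these courses by library.

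**Figure D2:**
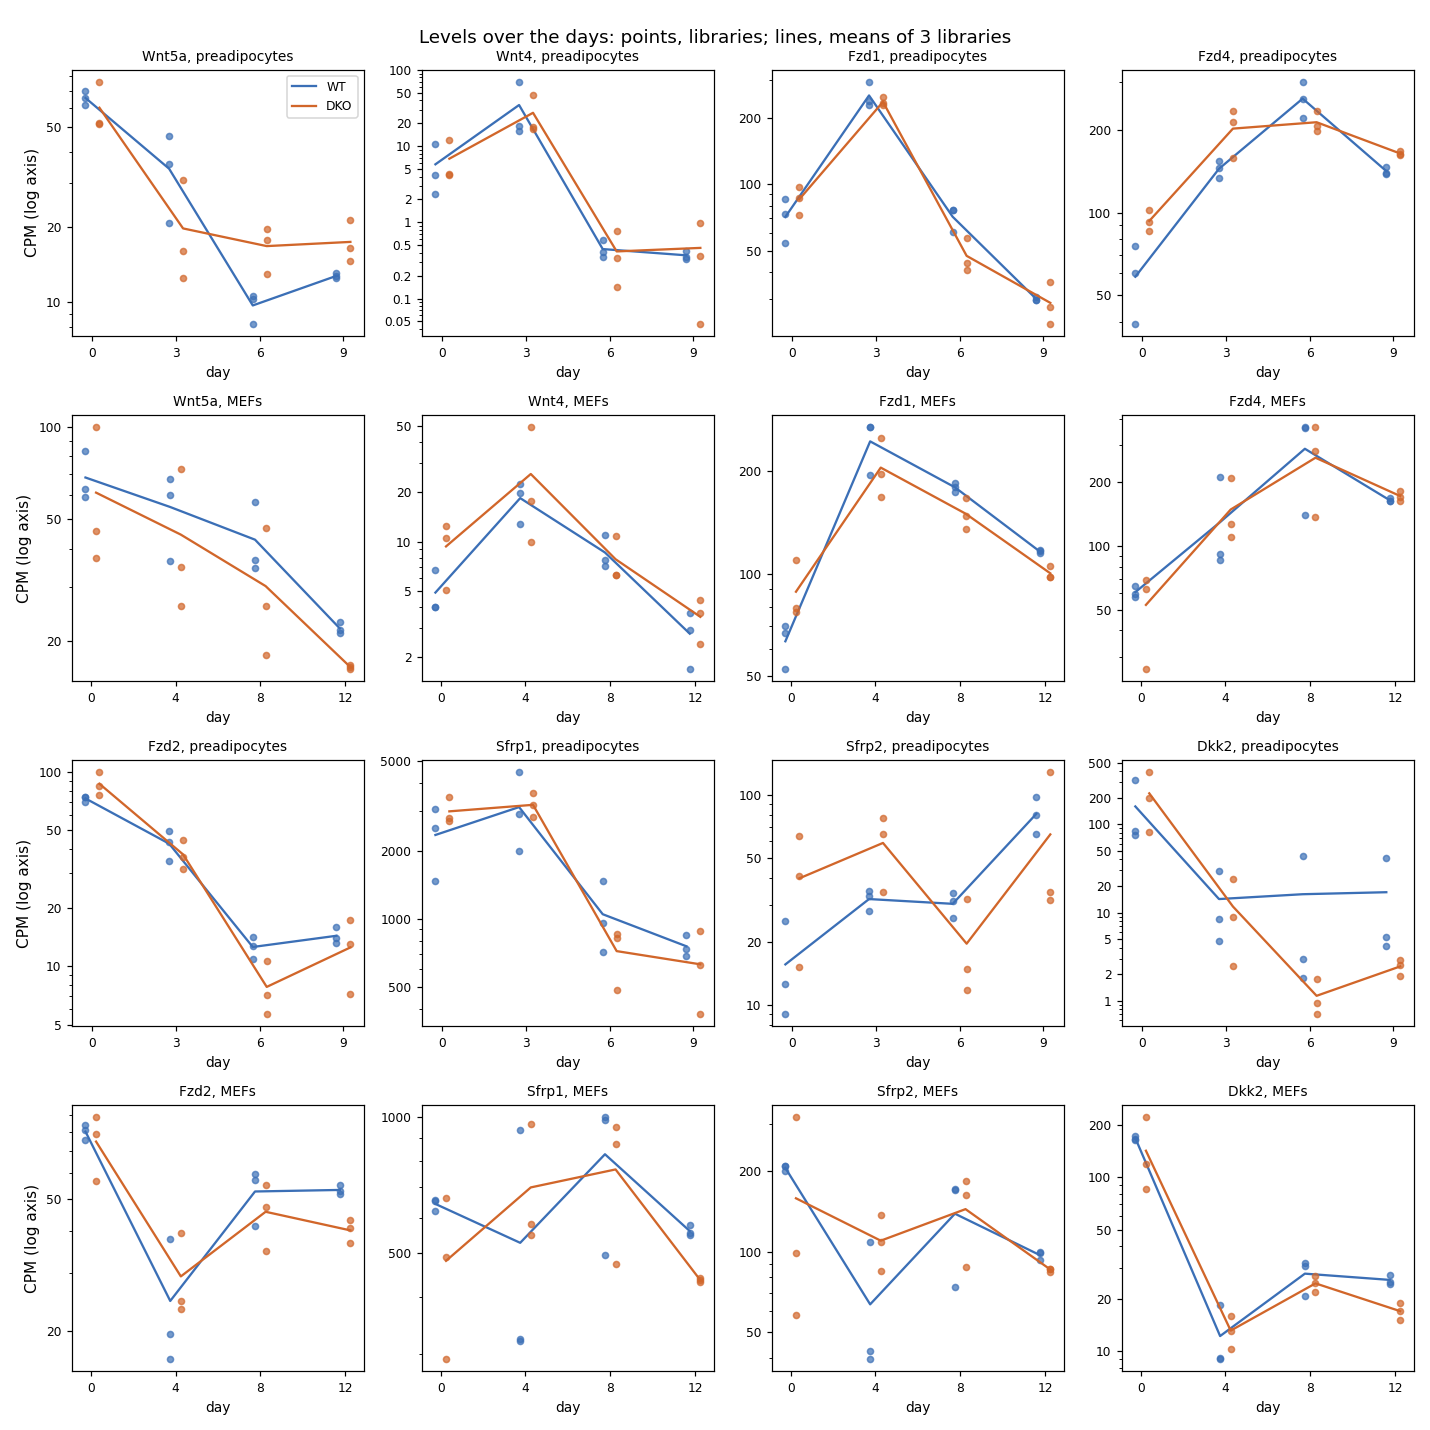
CPM on a log axis against the day of differentiation for Wnt5a, Wnt4, Fzd1, Fzd4, Fzd2, Sfrp1, Sfrp2 and Dkk2 in preadipocytes and MEFs, with points for libraries and lines for the means of 3 libraries, WT and DKO offset sideways. Fzd1 is highest at day 3 in preadipocytes and day 4 in MEFs in both genotypes, and WT replicate 1 is the high point of Dkk2 in preadipocytes at days 6 and 9.

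The readouts of β-catenin signalling were low. Axin2, a negative regulator and widely used target gene, held 1.19, 1.81 and 1.93 CPM at day 0 and 4.13, 2.69 and 4.15 CPM at day 3 in WT preadipocytes, where it was called (1.10 ± 0.35, adjusted p = 0.0260), and 4.72, 4.42 and 4.9 CPM at day 0 and 8.39, 7.88 and 7.26 CPM at day 4 in WT MEFs (0.64 ± 0.11, adjusted p = 0.000517). Tcf7, a DNA-binding partner of β-catenin, fell in WT preadipocytes from 1.5, 1.91 and 1.54 to 0.112, 0.0926 and 0.051 CPM (−4.19 ± 0.44, adjusted p = 3.50e-06) and was not called in MEFs. Lef1, another such partner, was at most 0.768 CPM in preadipocytes. In DKO MEFs it rose from 0.111, 0.0912 and 0.186 CPM at day 0 to 5.01, 3.59 and 0.811 CPM at day 8 (4.41 ± 0.66, adjusted p = 0.000677), and in WT MEFs, where it was not tested, day 8 held 1.32, 0.169 and 1.62 CPM.

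The day of the highest mean was mostly shared by the genotypes. Among members with a group mean of at least 1 CPM in each genotype, 22 of 25 in preadipocytes and 23 of 29 in MEFs peaked on the same day in WT and DKO. In WT preadipocytes 11 members peaked at day 0, 11 at day 3, 2 at day 6 (Fzd4 and Lrp5) and 1 at day 9 (Sfrp2). In WT MEFs day 0 held 11 peaks, days 4 and 8 held 8 each, and day 12 held 2 (Wnt10b and Wnt6). The exceptions in preadipocytes were Wnt11, Wnt2b and Axin2, and in MEFs Fzd5, Fzd8, Wnt10b, Wnt2b, Wnt5b and Wnt6. Without the 4 MEF libraries of days 4 and 8 that stood apart, 24 of 30 MEF members shared the day, and without day 0 DKO replicate 1 alone 19 of 29 did. These are orders of means and were not tested.

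Before induction the cell types differed in members of most roles, with a called share near that of all genes. Between WT preadipocytes and WT MEFs at day 0, 11 of 26 members were called (42.3%, against 38.6% of all genes), 2 higher and 9 lower in preadipocytes (19.9% of all genes called lower). Sfrp1 was higher in preadipocytes (1467, 2538 and 3060.1 against 657, 619 and 653 CPM, 1.78 ± 0.26, adjusted p = 0.00121) and Sfrp2 lower (12.5, 9.02 and 25.2 against 208, 199 and 208 CPM, −3.81 ± 0.39, adjusted p = 0.000457). Dkk3 was the other gene higher in preadipocytes (0.70 ± 0.12, adjusted p = 0.00175). Lower in preadipocytes were the ligands Wnt10b (−3.44 ± 0.44, adjusted p = 0.000290), Wnt11 and Wnt9a, the receptors Fzd8 and Fzd6, both co-receptors, Axin2 (−1.60 ± 0.22, adjusted p = 0.000407) and Sfrp2. Wnt5a did not pass the test (−0.15 ± 0.13, adjusted p = 0.353). Tissue of origin, age and sequencing of the table cannot be told apart in this comparison.

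Between genotypes, members were called on 2 of the 8 cell type and day combinations, preadipocytes at day 6 and MEFs at day 12. At day 6 in preadipocytes 3 of 23 tested members were called (13%, against 11.6% of all genes tested), and 8 of 23 had groups without overlap (42.8% of all genes). At day 12 in MEFs 4 of 28 were called (14.3%, against 7.98%), and 14 of 28 did not overlap (46.8% of all genes). No member was called in preadipocytes at day 0 (background 0.218%, 25 tested), day 3 (0.337%, 26 tested) or day 9 (1.24%, 22 tested), nor in MEFs at day 0 (0.102%, 28 tested), day 4 (0.0905%, 31 tested) or day 8 (0.0595%, 30 tested). At an unadjusted p under 0.05 these 6 comparisons held 3, 5, 4, 5, 2 and 2 members in that order. Over all genes tested the counts were 1188 of 15123, 1838 of 15119, 3984 of 14700, 1454 of 15671, 915 of 15475 and 1295 of 15117.

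In DKO preadipocytes at day 6 the ligands Wnt5a and Wnt11 were higher and the receptor Fzd1 was lower than in WT. Wnt5a held 8.2, 10.3 and 10.6 CPM in WT and 13, 17.7 and 19.6 CPM in DKO libraries, and the groups did not overlap (0.77 ± 0.17, adjusted p = 0.0177). Wnt11 held 0.697, 0.828 and 0.438 CPM in WT and 1.32, 1.76 and 2.08 CPM in DKO, also without overlap (1.37 ± 0.31, adjusted p = 0.0188). Fzd1 was at 76.4, 60.8 and 76.5 CPM in WT and 44.1, 57.1 and 40.7 CPM in DKO (−0.61 ± 0.14, adjusted p = 0.0197), and the highest DKO library lay below the lowest WT library. The median log2 fold change of the 23 members was −0.31 against −0.013 for all genes tested.

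These 3 calls depended on single libraries and on the fit. Leaving out WT replicate 1, WT replicate 3 or DKO replicate 3 each ended all 3, with adjusted p from 0.0512 to 0.0775 for Wnt11 and from 0.0519 to 0.0691 for Wnt5a, and Fzd1 was also lost without DKO replicate 1 (0.0507). With all 4 days of preadipocytes in 1 fit Wnt5a was not called (adjusted p = 0.0684) and Fzd1 fell under a 1.5-fold change (−0.57), and Fzd1 was also lost with the replicate number as a block (adjusted p = 0.0804). The log2 fold changes stayed between 1.15 and 1.57 for Wnt11, between 0.63 and 0.92 for Wnt5a and between −0.75 and −0.52 for Fzd1. At day 9 in the same cells Wnt5a held 13.1, 12.5 and 12.7 CPM in WT and 16.5, 14.6 and 21.2 CPM in DKO, which did not overlap and did not pass the test (0.42 ± 0.14, adjusted p = 0.119). Leaving out DKO replicate 2 at day 9 gave 3 calls where there had been none, Sfrp2, Wnt16 and Dkk3, all lower in DKO.

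Other receptors and antagonists at day 6 did not pass. Fzd2 held 14.1, 10.9 and 12.7 CPM in WT and 10.7, 7.16 and 5.68 CPM in DKO, without overlap (−0.70 ± 0.23, adjusted p = 0.0630). Dkk2 held 43.6, 2.98 and 1.8 CPM in WT and 1.76, 0.705 and 0.946 CPM in DKO (−3.82 ± 1.47, adjusted p = 0.119), a difference that leans on WT replicate 1. That library also had the highest summed level of 5 smooth muscle and myofibroblast markers, 239.9 CPM against 52.3 and 49.8 CPM in the other WT libraries and 59.5 to 75.3 CPM in DKO. Sfrp1 (−0.56 ± 0.32, adjusted p = 0.254), Sfrp2 (−0.66 ± 0.37, adjusted p = 0.251) and Fzd4 (−0.31 ± 0.12, adjusted p = 0.106) overlapped between genotypes.

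Sums of some cell type markers also differed between genotypes in preadipocytes at day 6. The summed level of 10 adipocyte markers was 23916 to 28101 CPM in WT and 30154 to 36920.5 CPM in DKO, with 1 of 9 tested called higher. For 10 preadipocyte and fibroblast markers it was 3215 to 3969 against 1732 to 2097 CPM, with 4 of 9 called lower, and for 6 macrophage markers 5118 to 8669 against 1884 to 3910.2 CPM, with 1 of 6 called lower. Lep in both genotypes and Dpp4 in DKO were at or under 3 counts. Of all genes tested 11.6% were called on this day, so 1 call in the adipocyte or macrophage list is near that share. Among 4 Schwann cell and nerve markers 1 was called higher and 1 lower, and among 4 smooth muscle and myofibroblast markers 1 was called higher. No tested endothelial or skeletal muscle marker was called. The part of these markers in the changes of Wnt5a, Wnt11 and Fzd1 was not tested.

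In DKO MEFs at day 12 the 4 called members were all lower than in WT (4.05% of all genes were called lower). Wnt2 held 1.77, 2.56 and 2.76 CPM in WT and 0.821, 0.5002 and 1.15 CPM in DKO libraries (−1.53 ± 0.31, adjusted p = 0.00104). Wnt10b held 6.18, 6.72 and 4.61 CPM in WT and 2.61, 4.23 and 2.29 CPM in DKO (−0.95 ± 0.22, adjusted p = 0.00406). Both ligands were without overlap, and both stayed called with each library left out in turn. Dkk2 held 27.4, 25.1 and 24.4 CPM in WT and 16.9, 15.1 and 18.8 CPM in DKO (−0.60 ± 0.08, adjusted p = 4.32e-05), and Fzd3 22.2, 19.5 and 18.8 CPM in WT and 12.4, 15 and 12.8 CPM in DKO (−0.59 ± 0.09, adjusted p = 0.000144). Neither overlapped between genotypes, and both lay so near a 1.5-fold change that 2 of 6 leave-outs for Dkk2 and 3 of 6 for Fzd3 put them under it. When all 4 days of MEFs shared 1 fit, none of the 4 was called, with adjusted p between 0.152 and 0.338. In the summed adipocyte markers, libraries of a genotype lay closer together at day 12 than at day 8. In WT they held 16268, 15927.5 and 16233.5 CPM at day 12, and 9704, 3590 and 9565 CPM at day 8. A fit of day 12 alone takes its spread from these close libraries, and leaving out 1 library does not test that.

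Smaller differences at day 12 in MEFs were common among the members and mostly downward. At an adjusted p under 0.05 without a fold threshold 13 of 28 members passed, 12 of them lower in DKO. Of all genes 33% passed in either direction, and the share that passed lower was not counted. Sfrp1 held 578, 554 and 549 CPM in WT and 436, 432 and 441 CPM in DKO (−0.36 ± 0.04, adjusted p = 3.82e-06), and Wnt5a 21.8, 23.1 and 21.3 CPM in WT and 16.3, 16.8 and 16.5 CPM in DKO (−0.42 ± 0.07, adjusted p = 0.000325). For Wnt5a this is the direction opposite to preadipocytes at day 6, and the difference between cell types was not tested. Also lower were Fzd2 (−0.40 ± 0.06, adjusted p = 8.46e-05), Fzd1, Sfrp2, Dkk3, Lrp5 and Lrp6, by 0.17 to 0.40 on the log2 scale. Axin2 was the 1 gene higher in DKO, at 8.4, 7.78 and 8.69 CPM against 7.29, 6.62 and 6.03 CPM (0.32 ± 0.12, adjusted p = 0.0459). The median of the 28 members was −0.19 against 0.0015 for all genes, and the summed ligand level was 11.7 to 13.6 CPM per kb in WT and 9.97 to 10.7 in DKO.

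**Figure D3:**
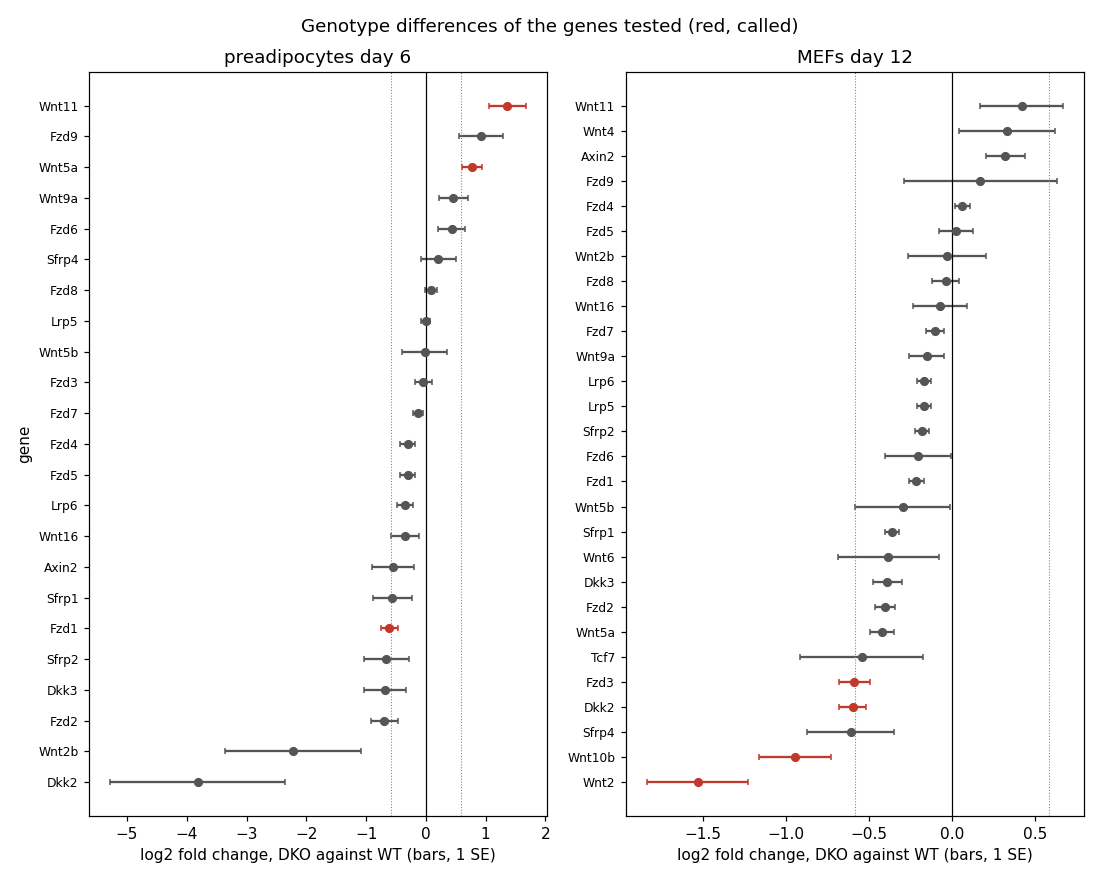
Log2 fold change of DKO against WT with 1 SE for the 23 members tested in preadipocytes at day 6 and the 28 tested in MEFs at day 12, with red for called genes and dotted lines at a 1.5-fold change. Wnt11, Wnt5a and Fzd1 are red at day 6, and Wnt2, Wnt10b, Dkk2 and Fzd3 are red and left of 0 at day 12.

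Lef1 had a higher mean in DKO than in WT MEFs at days 4, 8 and 12, and it was tested between genotypes at days 4 and 8 only. At day 8, with the levels given above, the libraries overlapped and it was not called. At day 4 it held 0.246, 0.142 and 0.245 CPM in WT and 0.448, 0.616 and 0.547 CPM in DKO, without overlap (1.302 ± 0.41, adjusted p = 0.748). At day 12 it held 0.132, 0.162 and 0.0394 CPM in WT and 0.709, 0.591 and 0.334 CPM in DKO and did not pass the filter on low counts. Without that filter the log2 fold change was 2.23 ± 0.66 (SE, adjusted p = 0.00427).

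Adipocyte and fibroblast markers moved with genotype at day 12 in MEFs too. Adipocyte markers summed to 15928 to 16268 CPM in WT and 23310.2 to 24643 CPM in DKO, with 5 of 10 called higher. Preadipocyte and fibroblast markers summed to 7031 to 7256 against 4696 to 5180.1 CPM, with 4 of 10 called lower, and macrophage markers to 3389 to 3439.6 against 2087 to 2409 CPM, with 1 of 6 called lower. No marker of these 3 lists was at or under 3 counts in a whole group. Of all genes tested 7.98% were called on this day. In other lists, 3 of 4 epithelial markers were called higher, from a low sum of 6.37 to 9.33 CPM in DKO. Called lower were 2 of 4 endothelial and 1 of 5 smooth muscle markers. Of 3 Schwann cell and nerve markers 1 was called higher and 2 lower. The part of all these markers in the lower levels of Wnt2, Wnt10b, Dkk2 and Fzd3 was not tested.

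At days 4 and 8 in MEFs the libraries within a genotype were far apart. Sfrp1 at day 8 held 1001, 496 and 988 CPM in WT and 954, 872 and 474 CPM in DKO, and Fzd4 364, 141 and 359 CPM in WT and 366, 282 and 137 CPM in DKO. WT replicate 2 and DKO replicate 3 were low for both genes. The same libraries had the lowest adipocyte marker sums of the day, 3589.8 and 4132 CPM, where the other 4 had 9565 to 16143 CPM. At day 4 Sfrp1 was highest in WT replicate 1 and DKO replicate 3 (939.5, 324 and 319.7 CPM in WT, 550.0, 580.3 and 969 CPM in DKO), which had the highest adipocyte sums of their groups, 5933 and 7363 CPM. Wnt5a ran the other way, with 34.8, 56.9 and 36.9 CPM in WT and 18, 26 and 46.8 CPM in DKO at day 8, highest where adipocyte markers were lowest in each genotype. The plot of 4 genes against the adipocyte sum shows all 12 libraries.

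**Figure D4:**
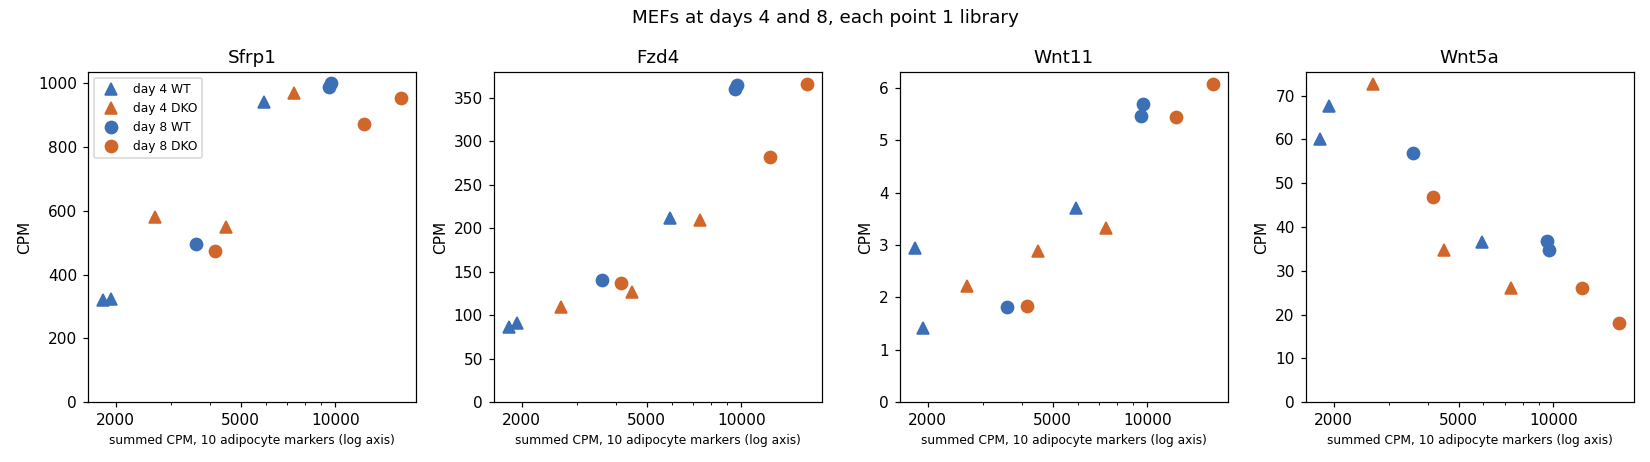
CPM of Sfrp1, Fzd4, Wnt11 and Wnt5a in MEFs at days 4 and 8 against the summed CPM of 10 adipocyte markers on a log axis, each point 1 library. At day 8, WT replicate 2 and DKO replicate 3 sit at the left with low Sfrp1, Fzd4 and Wnt11 and the highest Wnt5a of their genotype.

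Without the 4 libraries that stood apart, 2 members were called at day 4 (1.12% of all genes) and 3 at day 8 (4%), an alternative chosen after seeing the data that leaves 2 libraries in each group. At day 4 these were Sfrp2 (log2 fold change 1.21, adjusted p = 0.0118) and Sfrp1 (0.79, adjusted p = 0.0189), both higher in DKO. At day 8 they were Wnt2 (−1.31, adjusted p = 0.0177), Wnt5a (−0.71, adjusted p = 0.0396) and Lef1 (1.51, adjusted p = 0.0137). Wnt2 and Wnt5a were lower in DKO at day 12 as well, in other libraries, with all 6 of them kept.

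Against day 0, the counts of called members without these libraries were 18 of 31 at day 4 (58.1%, against 37.5% of all genes) and 15 of 31 at day 8 (48.4%, against 33.5%) in WT MEFs, where they had been 14 and 12 of 30. In DKO MEFs they were 11 of 31 on each of these days (35.5%, against 25.2% and 28.7%), where they had been 10 of 30. At day 4 in WT MEFs the log2 fold changes named above became 1.99 for Fzd1, 1.91 for Fzd3, 3.84 for Fzd9, −2.25 for Fzd2, −2.84 for Wnt10b, −4.31 for Dkk2 and 0.60 for Axin2, all still called. Lef1 at day 8 in DKO MEFs became 4.87 and stayed called. At day 8 Fzd2 in WT MEFs (−0.55) and Fzd1 (0.57) and Fzd3 (0.42) in DKO MEFs were no longer called.

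Whether the DKO effect changed from day 0 was asked with an interaction term in the libraries of both days. No member was called in any of the 6 interactions by edgeR's quasi-likelihood test (backgrounds 0.0125%, 3.49% and 0.0555% for preadipocytes at days 3, 6 and 9, and 0%, 0% and 1.42% for MEFs at days 4, 8 and 12). The counts at an unadjusted p under 0.05 were 1 of 27, 9 of 26, 2 of 25, 3 of 31, 3 of 31 and 4 of 29 members. Over all genes tested they were 996 of 15999, 3582 of 16236, 2556 of 16216, 1185 of 16436, 859 of 16374 and 2542 of 16352. The smallest adjusted p were 0.0573 for Wnt5a at day 6 in preadipocytes and 0.0800 for Fzd3 at day 12 in MEFs. DESeq2 called 4 at day 6 in preadipocytes (Wnt5a, Fzd1, Fzd2 and Fzd4) and 3 at day 12 in MEFs (Fzd3, Dkk3 and Fzd1). With all libraries, the genotype differences of Wnt5a, Fzd1 and Fzd3 were thus not shown by edgeR to differ from those before induction. Without day 0 DKO replicate 1 of the MEFs, edgeR called Dkk3 at days 4 and 8 (−0.83, adjusted p = 0.0402 and −1.02, adjusted p = 0.0465) and 4 members at day 12. These were Dkk3 (−1.13, adjusted p = 0.00412), Fzd3 (−1.14, adjusted p = 0.0153), Fzd1 (−0.79, adjusted p = 0.0255) and Sfrp2 (1.20, adjusted p = 0.00978). At day 0 itself Sfrp2 was then called lower in DKO MEFs (−1.37, adjusted p = 0.0459). In preadipocytes, leaving out day 0 DKO replicate 1, which correlated at −0.268 and −0.423 with its group, gave calls of Wnt5a (1.11, adjusted p = 0.0243) and Wnt11 (1.88, adjusted p = 0.0443) at day 6.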

How the data were processed

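RNA of 48 cultures was sequenced as strand-specific paired-end libraries by the authors, whose processing notes name cutadapt 1.18, STAR 2.7.0f, RSEM 1.3.0 and the build mm10. The deposited values are RSEM expected counts, which divide reads shared by similar genes, in 1 table per cell type and without normalization. They were rounded to whole numbers and tested with edgeR 4.0.16 in R 4.3.3 (filterByExpr, trimmed mean of M values, robust quasi-likelihood fit). Groups were taken from sample titles. DKO was compared with WT within a cell type and day (6 libraries), later days with day 0 within a genotype (12 libraries), and the DKO effect with that of day 0 as an interaction. With 3 libraries a group, an exact permutation test cannot go below p = 0.1 and was not used for calls. The 43 genes and all lists were chosen with earlier results of these data known.

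Named with values were all members called between genotypes, the 6 listed by name, up to 4 of the highest of each class and up to 4 of the largest changes in each direction at the last day in WT, among libraries without overlap. Other members are named for exceptions, after their values were seen. The fits were tested on simulated counts. Other settings tried were limma-voom with quantiles (limma 3.58.1), DESeq2 1.42.0, library sizes alone for scaling, no low-count filter, a log2 threshold of 1 or no fold threshold, all days of a cell type in 1 fit, a block for the replicate number, and each library left out. All 55450 identifiers matched GENCODE M21.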

Additional observations from a re-analysis of the deposited data

How the results depend on the processing

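None of the single-gene values counted below reversed direction under an alternative. The leading receptor of WT MEFs at day 8 and some days of the highest mean in MEFs did change, as given above. Among counts of called members, 401 values stayed within 1.5 times the main count and 31 did not. Of the values of single genes, 2557 kept their direction and their side of the threshold, 203 lost the call and 5 gained it. DESeq2 called 1 member at day 3 in preadipocytes (Wnt2b) and 1 at day 9 (Dkk2), where edgeR called 0, and among interactions 4 at day 6 in preadipocytes and 3 at day 12 in MEFs. With 1 fit over all days, 1 member was called at day 6 in preadipocytes in place of 3, 0 at day 12 in MEFs in place of 4, and 1 at day 0 in MEFs in place of 0 (Axin2). A log2 threshold of 1 in either direction left 1 at day 6 in preadipocytes, 1 at day 12 in MEFs, 6 at day 3 against day 0 in WT preadipocytes and 7 at day 8 against day 0 in WT MEFs, since fewer genes reach that fold. No fold threshold gave 13 at day 12 in MEFs. Without the 4 MEF libraries that stood apart, 2 were called at day 4 and 3 at day 8. The causes of the other shifts were not tested.

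With each library left out in turn, the counts between genotypes ran from 0 to 0 at days 0 and 3, 0 to 4 at day 6 and 0 to 3 at day 9 in preadipocytes, and in MEFs from 0 to 1 at day 0 (1 without DKO replicate 1), 0 to 0 at days 4 and 8, and 3 to 5 at day 12. Against day 0 they ran from 10 to 15, 16 to 19 and 15 to 19 in WT preadipocytes, 10 to 14, 18 to 20 and 15 to 18 in DKO preadipocytes, 13 to 17, 9 to 14 and 7 to 14 in WT MEFs (7 at day 12 without day 0 WT replicate 2), and 8 to 10, 8 to 10 and 6 to 11 in DKO MEFs (6 at day 12 without day 0 DKO replicate 1 or day 12 DKO replicate 2). Interactions ran from 0 to 0, 0 to 2 and 0 to 0 in preadipocytes (2 at day 6 without day 0 DKO replicate 1 or day 6 DKO replicate 1) and 0 to 1, 0 to 1 and 0 to 4 in MEFs (1, 1 and 4 without day 0 DKO replicate 1), and preadipocytes against MEFs from 10 to 13.

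Pairing of WT with DKO libraries by replicate number was not seen, in that on no day did all 3 same-numbered pairs correlate above 0.1. Single pairs reached 0.604 at day 3 in preadipocytes and 0.7 at day 8 in MEFs, so this rule does not show that the libraries were unpaired. With the replicate number as a block, the call of Fzd1 at day 6 in preadipocytes was lost and Fzd2 gained, Sfrp4 was gained at day 12 in MEFs (5 called), and 1 interaction was called at day 6 in preadipocytes (Fzd2). Within genotypes all 3 pairs correlated above 0.1 between days 6 and 9 of WT and of DKO preadipocytes and between days 0 and 3 of DKO preadipocytes, where the block kept all 14 calls. With 3 libraries a group, members near 1 CPM or below carry large errors.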

Other observations

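Other genes of Wnt signalling outside the 43 were counted from a list written by hand, which also holds Tcf4, an E-box factor that does not belong to this signalling. In DKO against WT, 3 of 55 tested were higher and 5 lower at day 6 in preadipocytes (14.5% called, against 11.6% of all genes), 0 were higher and 5 lower of 57 at day 12 in MEFs (8.77%, against 7.98%), and none was called on the other 6 days. Both shares were near the background, so the genes are named as a description and not as a result about the list. At day 6 in preadipocytes the higher genes were Porcn, which attaches the lipid to Wnt ligands (log2 fold change 1.44 ± 0.27, edgeR adjusted p = 0.0174), Gpc3, a cell-surface proteoglycan (0.72 ± 0.19, adjusted p = 0.0330), and Pygo1, a nuclear partner of the β-catenin complex (0.67 ± 0.14, adjusted p = 0.0150). Lower were Rspo3, a secreted amplifier of Wnt signalling (−1.30 ± 0.25, adjusted p = 0.0114), the receptors Ror2 (−0.62 ± 0.15, adjusted p = 0.0252) and Ptk7 (−0.98 ± 0.24, adjusted p = 0.0296), Nkd2, an inhibitor of Dishevelled (−1.43 ± 0.34, adjusted p = 0.0217), and Ccnd1, a cyclin often used as a target gene (−1.23 ± 0.20, adjusted p = 0.00805). Ror2 binds Wnt5a, which was higher in the same libraries. At day 12 in MEFs the lower genes were Ror1, a Wnt5a receptor of the same family (−0.66 ± 0.08, adjusted p = 7.40e-06), Gpc3 (−0.60 ± 0.05, adjusted p = 1.05e-07), Nkd2 (−0.66 ± 0.11, adjusted p = 4.78e-04), and the planar polarity genes Vangl2 (−0.64 ± 0.16, adjusted p = 0.00521) and Prickle2 (−0.62 ± 0.12, adjusted p = 0.00140). Gpc3 was thus higher in DKO preadipocytes at day 6 and lower in DKO MEFs at day 12, and the difference between cell types was not tested. Nkd2 was lower in both.

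Over time in WT preadipocytes, 9 of 58 of these genes were higher and 21 lower at day 9 than at day 0 (51.7% called, near the 52.7% of all genes), among the lower ones Wls, which carries Wnt ligands to the surface, and in WT MEFs 4 of 59 were higher and 15 lower at day 12 (32.2%, against 26.3%). Tle1, Celsr3, Porcn and Ror1 were called higher at the last day in WT cells of both types, and Wls, Ccn4, Ptk7 and Ccnd1 were among those called lower in both.

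Of the 4 pairs of neighbouring ligand genes, 2 held an expressed and a nearly silent gene. Wnt10b and Wnt1 lie 11.7 kb apart on chromosome 15 (mm10), and their highest counts in any library were 207 and 1. Wnt9a and Wnt3a lie 16.2 kb apart on chromosome 11, with at most 624 and 1 counts. Wnt6 and Wnt10a lie 6.19 kb apart on chromosome 1, with at most 35 and 10 counts. In the remaining pair, Wnt9b and Wnt3, 24.3 kb apart on chromosome 11, the highest counts were 3 and 5.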
